A study of Caenorhabditis elegans with 2 samples.

Results

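10 genes that set the sex of Caenorhabditis elegans or carry out dosage compensation were examined in a ChIP-seq map of NHR-77, a nuclear hormone receptor. The genes were xol-1 and sex-1, the sdc genes sdc-1, sdc-2 and sdc-3, and dpy-21, dpy-26, dpy-27, dpy-28 and dpy-30. They are grouped by their known roles, with no peak value in the rule, and they are 10 of the 19973 protein-coding genes in the annotation. Each gene was taken with its body and 5 kb on either side, and 8 of the 2285 reproducible peak summits fell in these stretches. The chromatin came from whole L1 larvae of strain OP353, in which unc-119(tm4063) on chromosome III was combined with the insertion wgIs353, and the receptor NHR-77 carried eGFP. There was 1 group of mixed sex with 2 biological replicates, both of this genotype and stage, and no second condition. The design therefore has no test between groups, and what can be set side by side are the replicates, the genes and the rest of the genome. Whole animals were used, so a peak cannot be assigned to a tissue or to either sex, and what drives the tagged receptor is not given in the sources used here.

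In this animal the number of X chromosomes relative to the autosomes decides between hermaphrodite (XX) and male (XO) development. X signal elements such as the nuclear receptor SEX-1 repress xol-1 in XX embryos, and XOL-1, where it is made, keeps sdc-2 off and permits male development. In XX animals SDC-2, with SDC-1 and SDC-3, brings the dosage compensation complex to both X chromosomes. The complex holds a condensin with the subunits DPY-26, DPY-27 and DPY-28, together with DPY-21 and DPY-30, and it lowers expression of X-linked genes.

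Of the genes, 4 lie on X (xol-1, sdc-1, sdc-2 and sex-1) and 6 on autosomes. Their annotated 5′ ends were the same in the Ensembl and RefSeq annotations for 10 of 10. A narrow peak list was available for each replicate, with 21272 and 24201 peaks in replicates 1 and 2, and for both replicates pooled, with 13500 peaks. The reproducible set, chosen by the authors from these lists by the irreproducible discovery rate, is the 2285 strongest pooled peaks. Its signal ran from 58.7 to 809 with a median of 92.4, and the strongest pooled peak outside it had 58.6. Signal is the authors' value per peak, and a rank of 1 is the strongest peak of a list. Signals were not compared between lists, and the sequencing depth is unknown.

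Reproducible peaks stood near most of these genes, and at the start of 3 of them. A reproducible summit lay within 5 kb of 7 of the 10 gene bodies, namely xol-1, sdc-2, dpy-21, dpy-27, dpy-28, dpy-30 and sex-1, and near none of sdc-1, sdc-3 and dpy-26. That is 70.0% of the 10 genes (exact 95% interval 34.8 to 93.3%), against 26.1% of all protein-coding genes. The background was 27.4% among protein-coding genes on X, 29.5% among those with a gene name and 26.3% among those within the length range of the 10 genes. The 10 genes are long, with a median of 6717 bp against 2027 bp over all protein-coding genes, and among genes at least as long as that median the background was 37.6%. The interval covers counting error over the 10 genes only. The background of 37.6% lies inside it, and the other backgrounds, from 26.1 to 29.5%, lie below it. The genes were chosen with earlier results of these data known, so the interval is not a test against any background. At 3 of the 7 genes, dpy-21, dpy-28 and sex-1, the summit stood nearer to the start of another protein-coding gene. With 2 kb on either side in place of 5 kb, 3 of the 10 genes had a reproducible summit. No background share was computed for the 2 kb window.

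The promoter window of a gene started 1000 bp before its annotated 5′ end and ended 250 bp after it. By this measure 3 of the 10 genes held a reproducible summit, sdc-2, dpy-27 and dpy-30, a share of 30% (exact 95% interval 6.67 to 65.2%). The background was 8.60% of all protein-coding promoters, 11.2% of those of named genes and 7.29% of those on X. All 3 values lie inside the interval, which again covers counting error over the 10 genes only. The promoter share was not tested against the background. Among the 1143 strongest reproducible peaks 1 promoter summit remained, that of sdc-2, and no background share was computed for those peaks. In the larger pooled list 6 of the 10 promoters held a summit (60.0%, exact 95% interval 26.2 to 87.8%), against 26.5% of all promoters. The same 6 were found in the pooled list and in both replicate lists, with the same interval, against 19.7% of all promoters. The background of 26.5% lies inside that interval and the one of 19.7% below it, and neither difference was tested. The 6 were the promoters of sdc-2, dpy-27 and dpy-30 and, with weaker peaks, those of xol-1, sdc-1 and dpy-26. The relaxed lists include background, and these weaker peaks had low deposited −log10 q values in 1 or both replicates. In replicates 1 and 2 the values were 1.74 and 0.352 for xol-1, 2.84 and 0.140 for sdc-1, and 0.0499 and 0.530 for dpy-26.

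**Figure D1:**
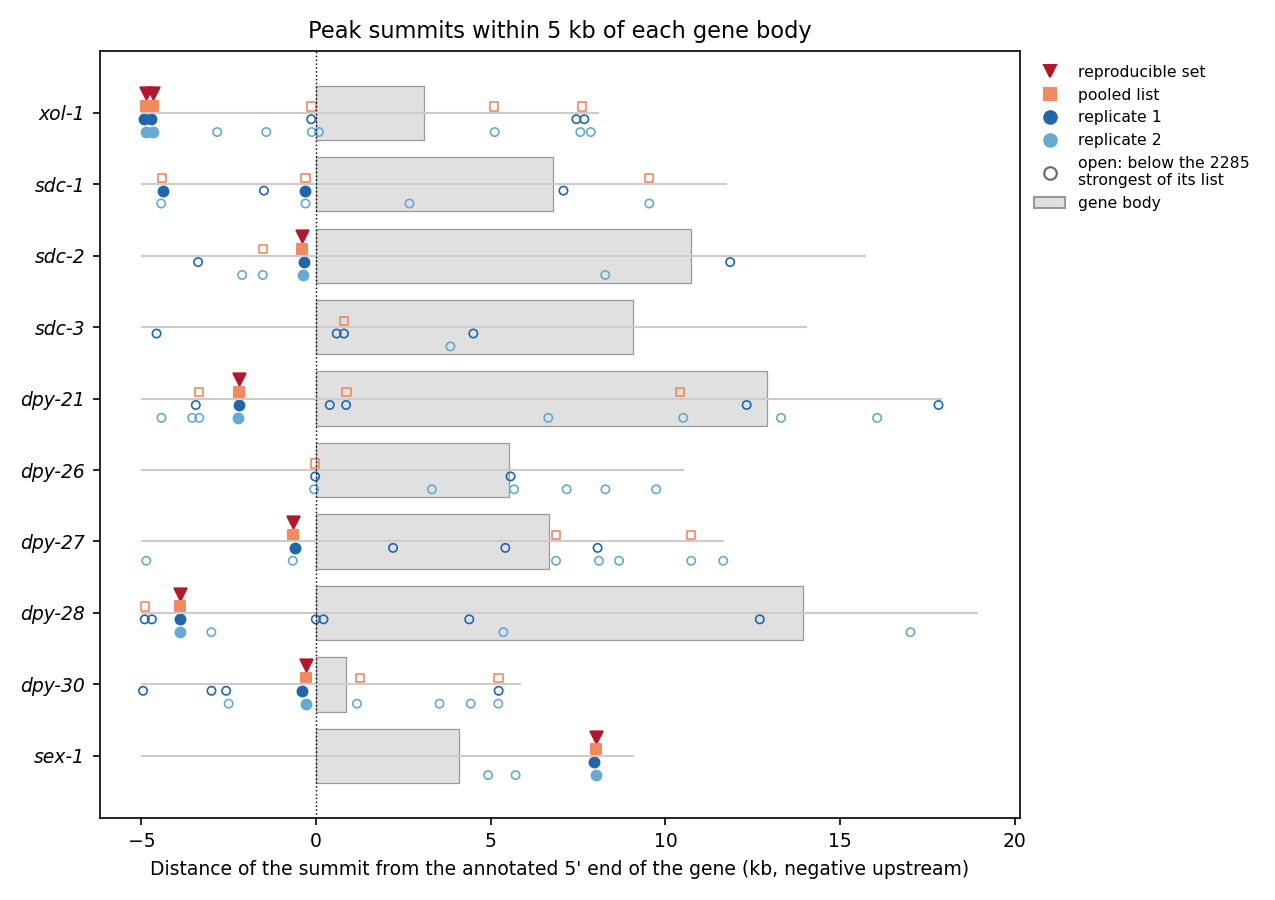
Summits of each list by distance from the annotated 5′ end (kb, negative upstream), with 1 line per gene, the gene body as a grey box and the line ending 5 kb beyond it. Filled marks are among the 2285 strongest peaks of their list. Red triangles, the reproducible summits, stand close to the start of sdc-2, dpy-27 and dpy-30, farther upstream of xol-1, dpy-21 and dpy-28, and beyond the end of sex-1.

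**Figure D2:**
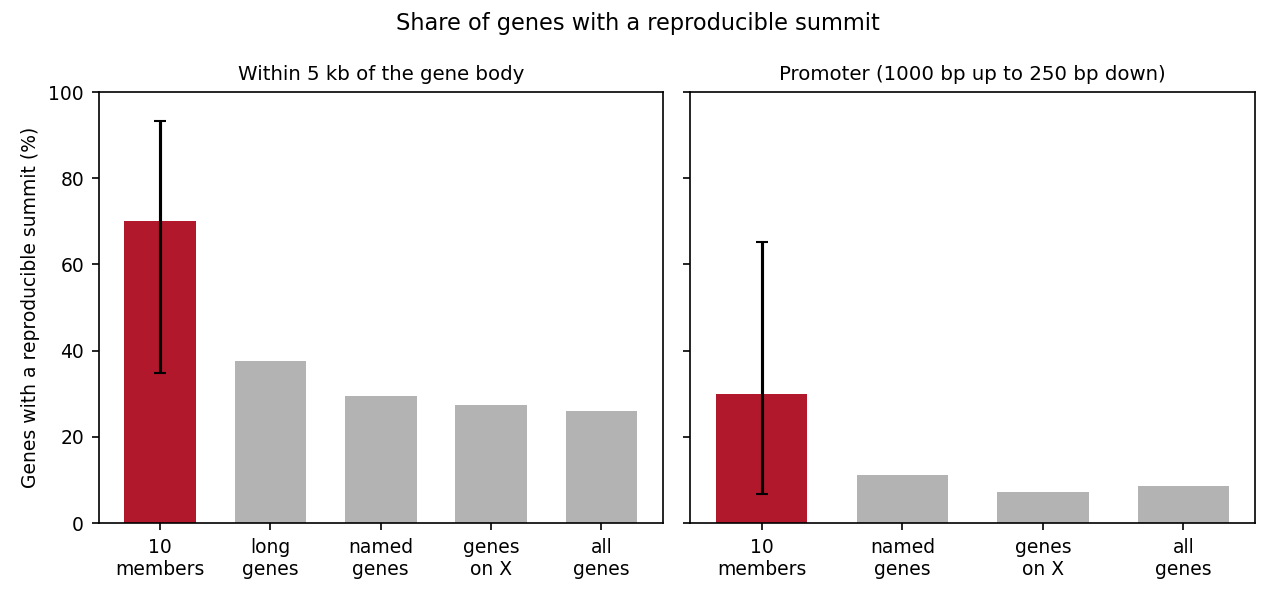
Share of genes with a reproducible summit (%, from 0) within 5 kb of the gene body (left) and in the promoter (right), for the 10 genes and for protein-coding genes in the background. "Long genes" are at least as long as the median of the 10 genes, and the bar on the first column is its exact 95% interval. The 10 genes stand at 70.0% and 30%, against 26.1% and 8.60% of all genes.

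All 8 reproducible summits were intergenic, against 62.5% of all 2285 summits. The median signal of the 8 was 145, against 92.4 over all reproducible peaks, and their median rank was 523.5, against 1143. They ranged from rank 3 to rank 1326, so both some of the strongest and some of the ordinary peaks of the set were among them.

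The switch gene xol-1 (chrX:8041313-8044409, plus strand in ce11) encodes the protein that, when made in the embryo, directs male development. The 2 reproducible summits near it lay upstream, at −4873 and −4671 bp from the 5′ end, inside 1 deposited interval of 436 bp (chrX:8036232-8036667). No protein-coding gene started closer to either summit than xol-1 did, and the neighbouring gene C34D10.1 started 6961 bp before the first of them. The summit at −4873 bp was the stronger one, with signal 332 and rank 58 in the reproducible set, signal 172 and rank 80 in replicate 1, and signal 154 and rank 54 in replicate 2. The summit at −4671 bp had signal 103 and rank 948 in the reproducible set, signal 91.1 and rank 397 in replicate 1, and signal 49.7 and rank 843 in replicate 2. Both were thus among the 1000 strongest peaks of each replicate. The sequence around the stronger summit is shown because it holds the same 9 bases on both strands. It is read 5′ to 3′ on the plus strand, the strand of xol-1, from 100 bases before to 100 bases after the summit, with those 9 bases, CGCGCAGGG and the reverse complement, in capitals.
xol-1 upstream site, chrX:8036340-8036540: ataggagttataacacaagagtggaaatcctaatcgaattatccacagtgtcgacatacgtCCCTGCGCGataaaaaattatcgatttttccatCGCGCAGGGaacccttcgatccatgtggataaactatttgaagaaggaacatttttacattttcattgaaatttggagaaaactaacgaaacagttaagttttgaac

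The 9 bases CGCGCAGGG match the core of the motif enriched on X, which is known from the sites where the dosage compensation complex is recruited to X. They were searched for on both strands after the sequences had been read, so the counts are descriptions. The copy on the plus strand lay 2 bp from the summit and the one on the minus strand 35 bp from it, and none of the other 7 windows held a copy. On X, 12 of 420 reproducible windows (2.86%) held the motif, 3 of them with more than 1 copy, against 1 of 1865 windows (0.0536%) on the autosomes. Chromosome X carries 33 copies (1.86 per Mb) and the autosomes 44 (0.533 per Mb). Of these, 15 on X (45.5%) and 1 on the autosomes (2.27%) lay within 100 bp of a reproducible summit. The motif was thus both denser on X and, copy for copy, more often near a summit there. X peaks with the motif had a median signal of 363, against 90.5 for X peaks without it, and the xol-1 site was the 8th strongest of those 12. Among the 100 strongest reproducible peaks, 9 of the 27 on X held it and 0 of the 73 on autosomes did. Whether NHR-77 itself contacts these letters was not tested.

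**Figure D3:**
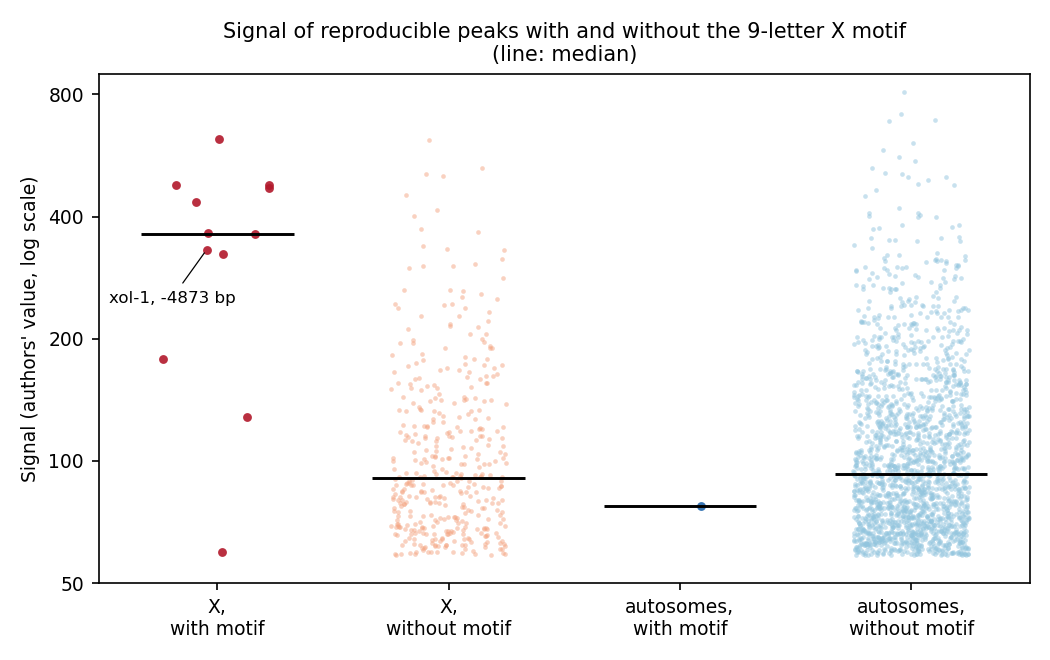
Signal of each reproducible peak (the authors' value, log scale) by chromosome group and by whether its 201-bp window holds CGCGCAGGG on either strand. Points are peaks and lines are medians, 363 for the 12 peaks on X with the motif and 90.5 for those without it.

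The weaker xol-1 summit at −4671 bp lay 43 bp from the tRNA gene WBGene00022939 (chrX:8036685-8036757, minus strand), and the stronger one lay 245 bp from it. The noncoding RNA gene C18A11.13 runs over the same tRNA gene on the other strand. On X, 70 of 420 reproducible summits (16.7%) were within 100 bp of a tRNA gene, against 157 of 2285 (6.87%) on all chromosomes. The other 6 reproducible summits near the 10 genes were at least 20257 bp from a tRNA gene. In the window of the weaker summit 81.8% of 32-base words occur once in the genome, against 100% in that of the stronger. The part of this in the signal was not tested. At its own promoter xol-1 held a weak summit that was found in every list outside the reproducible set, at −131 bp with signal 45.3 and rank 3307 in the pooled list, rank 2821 in replicate 1 and rank 5572 in replicate 2.

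The other signal gene, sex-1 (chrX:10201329-10205421, minus strand), encodes a nuclear hormone receptor, as nhr-77 does, that acts as an X signal element and represses xol-1. The only reproducible summit near it lay beyond its 3′ end, at +8002 bp from the 5′ end (interval chrX:10197229-10197608). It had signal 122 and rank 701 in the reproducible set, signal 67.7 and rank 727 in replicate 1, and signal 57.3 and rank 647 in replicate 2. The same summit stood at −287 bp from the start of nucb-1, the nucleobindin homologue, and so in the promoter of that gene. No list held a summit in the promoter of sex-1.

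Among the sdc genes, sdc-2 (chrX:11522707-11533450, plus strand) was the one with a reproducible promoter peak. SDC-2 is the hermaphrodite-specific protein that starts assembly of the complex on X. Its summit lay at −391 bp (interval chrX:11522126-11522505), with signal 168 and rank 346 in the reproducible set, signal 79.4 and rank 520 in replicate 1, and signal 87.1 and rank 242 in replicate 2. The next start, that of hpo-34 on the other strand, was farther away, at −3250 bp, and no other promoter window held this summit. The sequence around it is given on the strand of sdc-2, with TCTCTC, the reverse complement of GAGAGA, in capitals, because it has 3 copies in the same orientation.
sdc-2 promoter site, chrX:11522216-11522416: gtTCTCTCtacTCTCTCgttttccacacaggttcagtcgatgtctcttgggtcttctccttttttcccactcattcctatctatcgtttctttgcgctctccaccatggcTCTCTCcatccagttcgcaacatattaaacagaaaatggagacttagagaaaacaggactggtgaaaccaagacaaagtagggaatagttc

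The zinc finger genes sdc-1 and sdc-3, whose proteins act with SDC-2, had no reproducible summit within 5 kb. At sdc-1 (chrX:16275763-16282534, plus strand) a promoter summit at −303 bp stood just outside the set, with signal 53.3 and rank 2613 in the pooled list. Replicate 1 had it at rank 1750 with signal 40.5, and replicate 2 at rank 10804 with signal 15.0, so the replicates placed it far apart although the summit base was the same in both. The 2 other pooled summits near sdc-1 lay inside tRNA genes, at −4407 bp (rank 2894) and at +9535 bp (rank 10354). In all, 3 of the 25 pooled summits near the 10 genes (12.0%) were within 100 bp of a tRNA gene, against 318 of 13500 (2.36%) over the whole pooled list. All 3 were near xol-1 or sdc-1, on X, where such summits were commoner in the reproducible set (16.7% against 6.87%). No share for X was computed in the pooled list, so the count cannot be taken as particular to these genes. At sdc-3 (chrV:15039148-15048207, minus strand) the only pooled summit was an intronic one at +798 bp with rank 12210, and no list held a summit in its promoter. The nearest reproducible summits stood 22625 bp from the 5′ end of sdc-1 and at −23274 bp from that of sdc-3.

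Of the condensin genes, dpy-27 (chrIII:3813018-3819679, minus strand), which encodes the SMC subunit found only in the dosage compensation condensin, held a reproducible promoter summit at −669 bp (interval chrIII:3820158-3820537). The summit had signal 88.0 and rank 1244 in the reproducible set. Replicate 1 gave it signal 62.7 and rank 841, whereas replicate 2 gave it signal 26.7 and rank 2496, outside the 2285 strongest peaks of that replicate. Of the 3 reproducible promoter peaks it is the one whose replicate ranks lay farthest apart. The summit lay at −75 bp from the 5′ end of the noncoding RNA gene R13G10.5, on the same strand. It was thus nearer to that start than to the start of dpy-27. The start of amx-1 on the other strand was farther away, with the summit at −2055 bp. The sequence around the summit is shown on the minus strand, the strand of dpy-27. TCTCTC is in capitals, since it also has 3 copies in 1 orientation here.
dpy-27 promoter site, chrIII:3820248-3820448: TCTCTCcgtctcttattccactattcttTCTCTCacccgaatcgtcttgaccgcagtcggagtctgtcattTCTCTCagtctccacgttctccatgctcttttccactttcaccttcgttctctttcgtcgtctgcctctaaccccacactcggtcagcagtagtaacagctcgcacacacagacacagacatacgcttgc

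The subunit gene dpy-28 (chrIII:10763131-10777076, plus strand), for a condensin subunit shared with the mitotic and meiotic complex, had the strongest of the 8 sites in its neighbourhood, but not at its own start. The summit at −3883 bp (interval chrIII:10759109-10759378) had signal 691 and rank 3 in the reproducible set. It had signal 370 and rank 3 in replicate 1, and signal 321 and rank 2 in replicate 2, with summits at most 1 bp from the pooled one. This summit stood at −59 bp from the start of tasp-1, a gene on the same strand that ends 109 bp before dpy-28 begins, and at −726 bp from the start of K01G5.10 on the other strand. It is thus inside the promoters of both those genes and outside that of dpy-28, where replicate 1 alone had weak summits, the stronger at −8 bp with rank 9535. Its sequence is shown as the strongest site and as the only one of the 8 with AGGTCA, the hexamer that many nuclear receptors bind. AGGTCA starts 67 bp from the summit, and 5.56% of all 2285 reproducible windows hold it. Whether NHR-77 contacts it was not tested. The sequence is read on the plus strand, with AGGTCA and GAGAGA in capitals.
tasp-1 promoter site upstream of dpy-28, chrIII:10759148-10759348: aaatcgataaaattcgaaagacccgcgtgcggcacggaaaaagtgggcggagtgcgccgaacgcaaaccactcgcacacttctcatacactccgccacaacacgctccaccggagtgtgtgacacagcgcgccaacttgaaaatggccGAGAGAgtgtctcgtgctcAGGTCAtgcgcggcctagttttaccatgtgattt

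The remaining condensin gene, dpy-26 (chrIV:12445801-12451335, minus strand), had no reproducible summit within 5 kb, and the nearest stood at −13644 bp. A weak summit lay almost at its start, at −28 bp with signal 32.3 and rank 6101 in the pooled list. It was found at rank 16946 in replicate 1 and at rank 4173 in replicate 2. The replicates thus ordered dpy-26 and sdc-1 in opposite ways, replicate 1 favouring sdc-1 and replicate 2 favouring dpy-26.

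The last pair of genes encode proteins that join the complex from outside the condensin. DPY-21 is a demethylase of histone H4 lysine 20, and dpy-21 (chrV:17936282-17949193, minus strand) had a reproducible summit at −2210 bp (interval chrV:17951213-17951592) with signal 210 and rank 209. Replicate 1 had it at rank 173 with signal 126, and replicate 2 at rank 334 with signal 77. The summit stood in the promoter of the divergent gene Y59A8B.24, at −546 bp from its start, and no list had a summit in the promoter of dpy-21. This site had the highest GC content of the 8, at 59.7%, above that of 98.7% of all reproducible windows, and its sequence is shown for that and for its 3 copies of TCTCTC, in capitals, on the minus strand.
site between dpy-21 and Y59A8B.24, chrV:17951303-17951503: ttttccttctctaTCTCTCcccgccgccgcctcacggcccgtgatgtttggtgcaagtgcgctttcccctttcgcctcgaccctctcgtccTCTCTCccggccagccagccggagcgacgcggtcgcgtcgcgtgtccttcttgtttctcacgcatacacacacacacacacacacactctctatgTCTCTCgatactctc

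DPY-30 is a subunit of the COMPASS complexes that methylate histone H3 lysine 4, and it also serves in dosage compensation. The short gene dpy-30 (chrV:12191519-12192385, plus strand) held a reproducible promoter summit at −291 bp (interval chrV:12191038-12191417), with signal 85.1 and rank 1326. Replicate 1 had signal 47.2 and rank 1383, and replicate 2 signal 34.3 and rank 1593. The summit of replicate 2 was at the same base as the pooled one and that of replicate 1 lay 116 bp from it. The next gene on the strand, rnp-1, starts within dpy-30, and the summit lay at −1045 bp from that start, just outside its promoter window. The site is shown on the plus strand as the promoter site with none of the motifs searched, and it has no capitals. At 33.8% GC it had a higher content than only 5.16% of all reproducible windows, whose median was 43.8%.
dpy-30 promoter site, chrV:12191128-12191328: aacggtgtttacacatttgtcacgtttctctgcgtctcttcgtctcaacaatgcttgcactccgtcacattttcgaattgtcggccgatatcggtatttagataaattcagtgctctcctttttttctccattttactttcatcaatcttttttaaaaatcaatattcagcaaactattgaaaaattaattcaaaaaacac

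Among the 8 reproducible peaks and the 3 weaker promoter peaks, the replicate ranks lay farthest apart at sdc-1 and dpy-26, both outside the reproducible set. All 8 reproducible summits had an overlapping peak in both replicate lists, against 2279 of all 2285, and this agreement is partly built into the set. In 7 of the 8 (87.5%) both replicate peaks were among the 2285 strongest of their lists, against 72.4% of all reproducible peaks, and the exception was that of dpy-27. In 7 of the 8 both replicate summits lay within 100 bp of the pooled one, against 2132 of all 2285, and the exception was that of dpy-30. The numbers of summits per gene in the relaxed lists were 1 to 5 in the pooled list, 25 in all, 1 to 7 in replicate 1 (41) and 1 to 9 in replicate 2 (52).

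**Figure D4:**
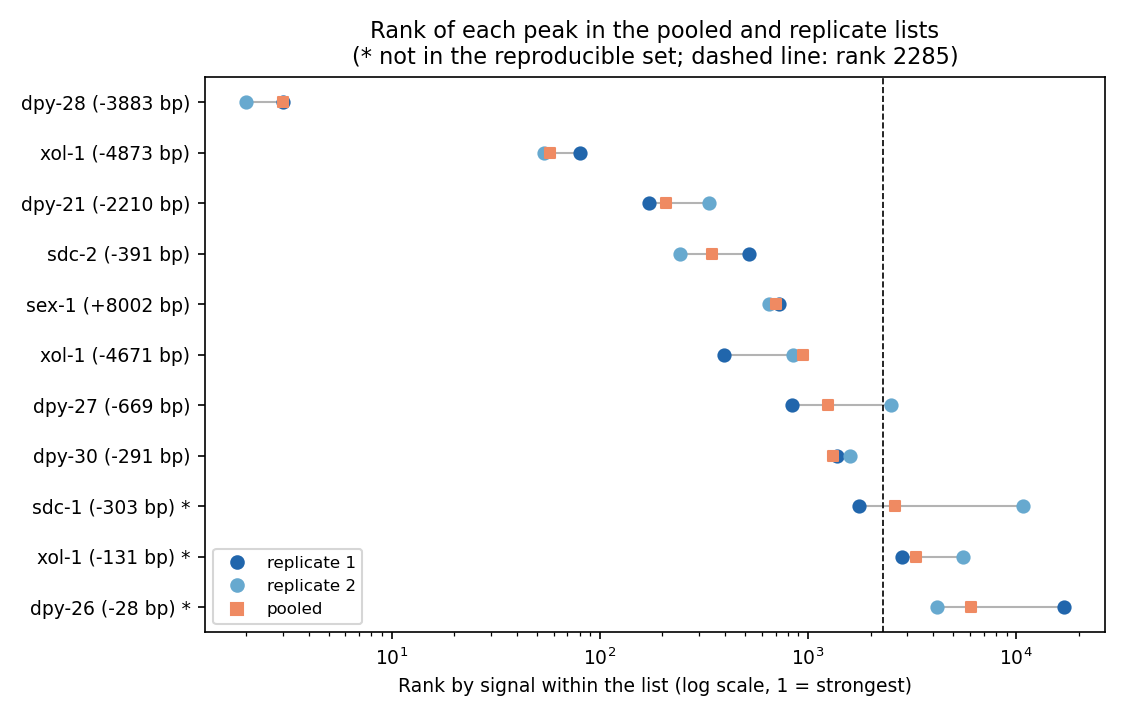
Rank by signal within its list (log scale, 1 is the strongest) of the 8 reproducible peaks and of the 3 weaker promoter peaks, starred, in the pooled list and in each replicate, with the distance from the 5′ end beside each gene. The dashed line is rank 2285. The sites of dpy-28, xol-1 (−4873 and −4671 bp), dpy-21, sdc-2 and sex-1 lie left of rank 1000 in both replicates. The replicates spread most at sdc-1 and dpy-26.

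Across the 8 windows of 201 bp, GAGAGA was present in 4, those of sdc-2, dpy-21, dpy-27 and dpy-28, against 44.9% of all 2285 windows. How many of all windows hold several copies of it, or copies in 1 orientation, was not counted. AGGTCA was present in 1 (dpy-28), against 5.56%. TGATAA, known as a site of GATA factors, was present in 0, against 10%. The E-box CACGTG was present in 0, against 6.17%. Each was searched on both strands, and none of these motifs is part of another. In the 300 bp around the annotated start, from 250 bp before it to 50 after, GAGAGA was present in 4 of the 10 genes, against 21.8% of all protein-coding genes. TGATAA was present there in 2 of 10, against 30.2%, AGGTCA in 0, against 8.27%, and CACGTG in 0, against 5.82%. With so few windows none of these shares can be told from the background.

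Other genes of the same pathways were taken from 5 lists made from textbook roles. Of the 49 genes found in the annotation, 9 (18.4%) had a reproducible promoter summit and 24 (49.0%) had one within 5 kb. The shares were 8.60% and 26.1% of all protein-coding genes, and 11.2% and 29.5% of those with a gene name. These lists were chosen with earlier results of these data known, so the difference from the background was not tested. Of the X and autosomal signal elements, 1 of 4 had a promoter summit, the homeobox gene ceh-39 (−202 bp, signal 76.5, rank 1567), which like sex-1 represses xol-1. The zinc finger gene sea-2 had a summit within 5 kb (signal 154), and fox-1 and sea-1 had none.

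In the somatic sex determination list 1 of 15 promoters held a summit, that of sel-10 (−184 bp, signal 99.7, rank 1010), an F-box gene that acts on the FEM proteins. Within 5 kb there were 7 of 15, among them tra-2, which encodes the membrane receptor that promotes female fate (signal 301, rank 82), her-1, the male ligand of that receptor (83.0), and fem-3 (82.6). In the germline list 3 of 15 promoters held a summit. They were those of the helicase gene mog-4 (−290 bp, signal 281, rank 103), the ataxin homologue atx-2 (−628 bp, signal 149, rank 469, nearer to the start of ecps-1) and the nanos homologue nos-3 (−53 bp, signal 122, rank 707).

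Among the other condensin and histone H4 lysine 20 genes, 2 of 9 promoters held a summit. These were set-4, the gene for the methyltransferase that makes the mark DPY-21 trims (−277 bp, signal 218, rank 191), and the condensin gene kle-2 (−714 bp, signal 107, rank 891, nearer to the start of C29E4.12). Among the COMPASS partners of dpy-30, 2 of 6 promoters held one. They were those of set-16 (−182 bp, signal 377, rank 40, nearer to the start of drr-2) and set-2 (−249 bp, signal 75.6, rank 1591), both for methyltransferases of histone H3 lysine 4. No reproducible summit lay within 5 kb of tra-1, fem-1, fem-2, fog-1, fog-2 or fog-3. The median distance from the 5′ end to the nearest reproducible summit was 4277 bp for the 10 genes, against 17494 bp for all protein-coding genes and 15735 bp for those on X. The 10 distances ran from 291 to 23274 bp, no median was computed for named genes, and the difference was not tested.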

How the data were processed

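The authors' deposited ce11 peak lists for eGFP-NHR-77 were used for each replicate, for the pooled replicates and for the reproducible set. Per the file headers and notes, peaks were called against a control, which was not analysed here, and the relaxed lists include background. No source used here names the aligner, the peak caller or the threshold. The deposited signal of each peak was used to rank peaks within a list, the deposited −log10 q value broke ties, and the deposited summit gave the position. The 1090 reproducible peaks with the highest −log10 q value share 3.34.

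Summits were assigned to genes of the Ensembl WBcel235 annotation, release 115, and sequences and motif counts came from the RefSeq genome of the same build, with which all peaks were compatible in chromosome names and lengths. Peaks were matched between lists by an overlap of at least 1 bp. Shares have exact (Clopper-Pearson) 95% intervals, computed with Python 3.11.15 and scipy 1.17.1. The assignment of summits was tested on simulated data. No p-values were computed, and the depth of the lists is unknown, so precision beyond the replicate values cannot be given. The 10 genes, the pathway lists and the motifs were chosen with earlier results of these data known. All 10 genes are described, and of the other pathway genes those with a promoter summit are named, plus examples chosen after their values were seen. The gene backgrounds by chromosome, length and name, and the motif CGCGCAGGG, were added after the data were seen. Of 50 pathway genes listed, mog-6 was not matched by name. Alternatives were windows of 2 and 10 kb, other promoter windows, the 1143 strongest reproducible peaks, stricter replicate matching and each replicate left out.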

Additional observations from a re-analysis of the deposited data

How the results depend on the processing

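The depth of the lists is unknown, the set is 1 group, and near a threshold a gene moves in or out with the list used. With a window of 2 kb on each side in place of 5 kb, 3 of the 10 genes had a reproducible summit in place of 7. With 10 kb there were 7, and with the 1143 strongest reproducible peaks 5. With those 1143 peaks, 1 promoter held a summit in place of 3, that of sdc-2. Leaving out each replicate in turn, and taking the 2285 strongest peaks of the other, gave 6 to 8 genes within 5 kb and 2 to 4 promoters, and a median rank of 458.5 to 490.5. Without replicate 1 dpy-27 was lost, and without replicate 2 sdc-1 was gained. Promoters of 500 bp upstream to 100 bp downstream gave 2 genes, sdc-2 and dpy-30. Wider ones, starts of any transcript or the nearest protein-coding start only gave 3 each. No background share was computed for these alternative settings, so their counts cannot be set against the rest of the genome. Agreement between the replicates came to 7 of 8 under each of the 3 stricter matches, with a different exception each time. The exceptions were dpy-27 by rank, dpy-30 by summit distance and xol-1 at −4671 bp by reciprocal overlap. No paired analysis was possible because the replicates form 1 group with no second condition.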
